A study of Mus musculus with 6 samples.

Results

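The genes described here, called primary granule genes below, are 9 genes of early granulocyte-monocyte cells: *Prtn3*, *Mpo*, *Elane*, *Ctsg*, *Ctsc*, *Ms4a3*, *Srgn*, *Cst7* and *Prss57*. Most are linked to the primary (azurophilic) granule or its assembly, whereas *Ms4a3* encodes a membrane protein of granulocyte-monocyte progenitors. All 9 were taken by gene name from the 34745 genes in the expression tables of sorted hematopoietic stem cells (HSCs). They were chosen with the comparison between *Med23*-deficient (KO) and control (WT) HSCs already known, *Prtn3* for its higher level in KO HSCs. Their KO and WT values are therefore given as a description, without a test.

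Primary granules are the first granules made by developing neutrophils and monocytes, at the promyelocyte stage, and hold serine proteases and myeloperoxidase. The proteases are made as inactive precursors, activated by cathepsin C and packed on the proteoglycan serglycin. Their RNA is abundant in granulocyte-monocyte progenitors, whereas HSCs lie upstream of that commitment.

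Bulk RNA-seq was done on bone marrow HSCs of adult C57BL/6 mice, sorted as LSK (Lin-Sca1+cKit+) CD150+CD34-CD48- cells. The 3 WT samples carried the genotype Med23floxp/flowp and the 3 KO samples Mx1-cre;Med23floxp/flowp. Both groups thus shared the loxP-flanked alleles of *Med23*, which encodes a subunit of the Mediator complex, and only the KO group carried Cre. The *Mx1* promoter is induced by interferon, here through poly(I:C), and it is not specific for HSCs. Whether the WT mice of these libraries received poly(I:C), and how many mice each sample came from, are not given in the sources used here. The cDNA was amplified with a low-input kit before library preparation, and nothing says that the samples of a group were separate animals, so the errors given measure only the spread between these samples, which may be technical.

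Each library held between 3537269 and 8131344 counts. *Med23* itself was at 47.6, 70.8 and 24.1 CPM (library-size-scaled counts, with TMM factors) in WT and at 31.6, 29.8 and 36.8 CPM in KO, a log2 difference of -0.54 ± 0.41 (SE), with an edgeR adjusted p of 0.989. The library labelled WT replicate 3 thus lay below all 3 KO libraries, and the part of the transcript that its reads covered is not known from gene counts. The 12 HSC markers all had more than 3 counts in all 6 libraries, with a summed level of 2924 to 3427 CPM in WT and 3044 to 3169 CPM in KO. Single markers within this sum separated the groups in opposite directions, beside 12.4% of all genes tested whose groups did not overlap in either direction. *Hlf* was at 208 to 376 CPM in WT and 145 to 178 CPM in KO. *Ly6a* was at 152 to 216 and 81.4 to 151 CPM, and *Kit* at 796 to 937 and 570 to 720 CPM. *Mecom* was higher in KO, at 187 to 240 and 259 to 416 CPM. These markers are named after their values had been seen. Of the 10 marker lists of other cells, 4 did not overlap between the groups: skeletal muscle (10 genes, 138 to 348 CPM in WT and 4.65 to 16.7 CPM in KO), erythroid cells (6 genes, 17.5 to 73.9 and 6.73 to 11.9 CPM), megakaryocytes (5 genes, 142 to 220 and 262 to 342 CPM) and, near the floor, eosinophils (5 genes, 0 to 0.123 and 0.203 to 3.04 CPM). No share like that of single genes was computed for summed lists. The part of these markers and lists in the differences described below was not tested.

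*Prtn3*, which encodes proteinase 3, was the one gene of the 9 whose KO libraries all lay above all WT libraries. In the order of their replicate numbers the WT libraries held 405, 1150 and 280 *Prtn3* counts and the KO libraries 1503, 1688 and 1756, and all values below follow this order. Scaled, these were 83.0, 141 and 86.5 CPM in WT and 305, 307 and 355 CPM in KO. The lowest KO library was above the highest WT library, and their exact Poisson intervals at 95% (289 to 320 and 133 to 150 CPM) did not meet. These intervals cover counting error only, not the spread between libraries, and *Prtn3* was chosen for its higher level in KO. The means were 104 ± 32.7 CPM in WT and 322 ± 28.6 CPM in KO (SD, n = 3), a log2 fold change of 1.63 ± 0.25 (SE), or 3.10-fold. Without the library labelled WT replicate 3 the log2 fold change was 1.52. For comparison, 216 of the 12513 genes that passed the filter on low counts had a log2 fold change at least as high (1.73%), and every KO library lay above every WT library for 782 genes (6.25%). In a bulk sample, more cells that hold a transcript and more of it in each cell cannot be told apart, and the same holds for fewer cells and less transcript.

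The KO libraries differed little from each other in *Prtn3*. The SD of its log2(CPM + 0.5) was 0.125 over the KO libraries and 0.425 over the WT libraries. The KO value lay at percentile 8.06 of all genes tested, whose median SD was 0.402 in KO and 0.481 in WT. This percentile was not matched for level, and genes with few counts vary more through counting error. Much of the WT spread came from WT replicate 2, the deepest library and the highest of the 3.

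**Figure D1:**
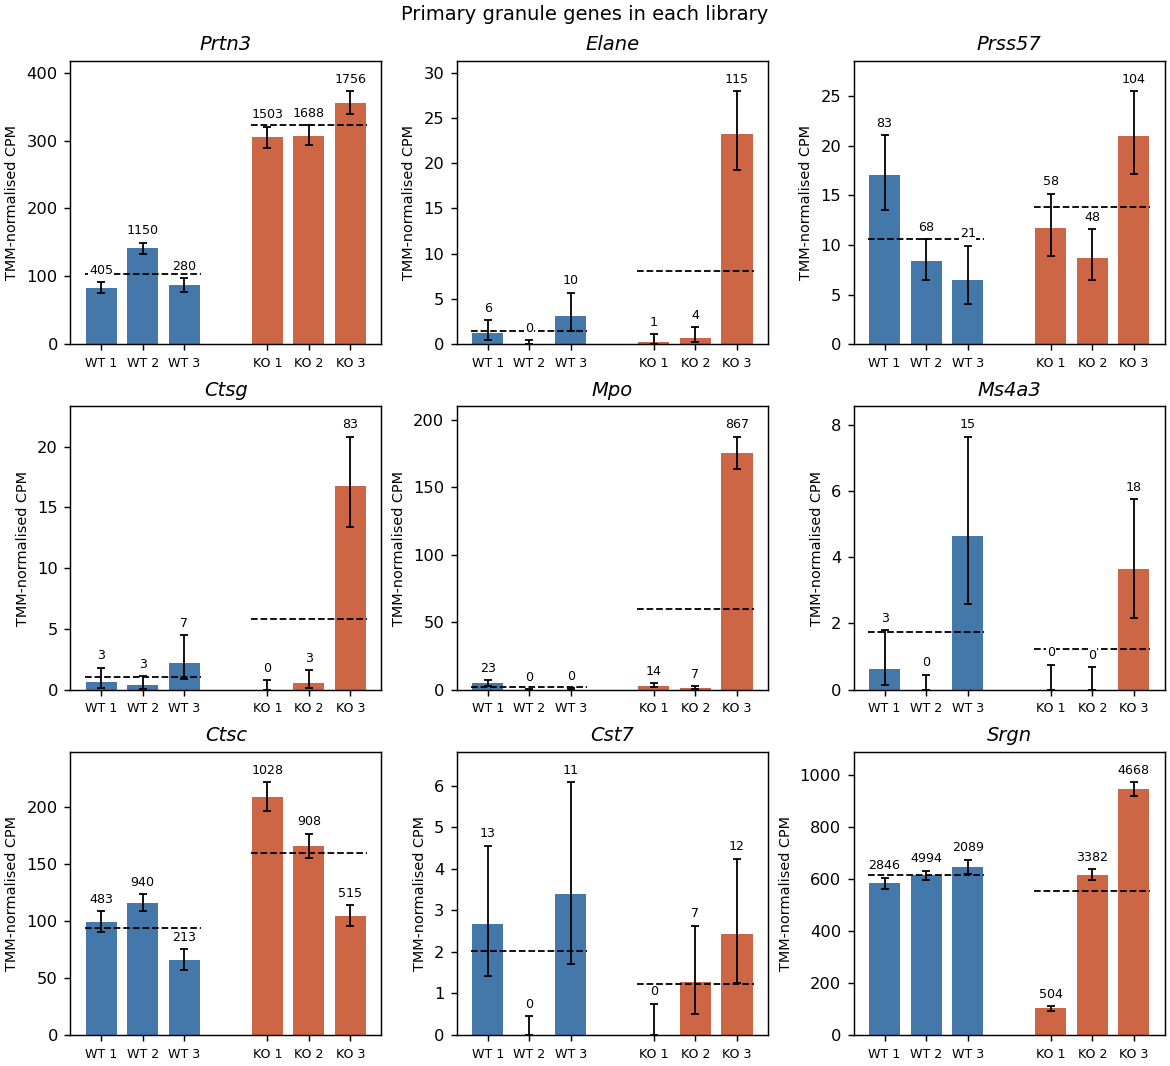
TMM-normalised CPM (vertical axes, linear, each with its own range) of the 9 primary granule genes in the 3 WT (blue) and 3 KO (orange) libraries. Black bars are exact 95% Poisson intervals, which cover counting error only, dashed lines are group means, and the number above each bar is its count. *Prtn3* was at 305 CPM or more in every KO library, whereas *Mpo*, *Elane* and *Ctsg* reached their highest level in KO replicate 3 alone.

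*Elane*, which encodes neutrophil elastase, is the next gene on the chromosome in the same orientation. In GRCm38, *Prtn3* spans chr10:79874476-79883174 and *Elane* chr10:79886247-79888215, both on the plus strand (GENCODE M21), with 3072 bases between them. *Elane* had 6, 0 and 10 counts in WT and 1, 4 and 115 counts in KO. Only KO replicate 3 stood out, at 23.3 CPM, and KO replicates 1 and 2, at 0.203 and 0.728 CPM, lay within the WT range of 0 to 3.09 CPM. For each *Elane* count there were 1503 *Prtn3* counts in KO replicate 1, 422 in KO replicate 2 and 15.3 in KO replicate 3, against 67.5 in WT replicate 1 and 28 in the library labelled WT replicate 3. WT replicate 2, with 1150 *Prtn3* and 0 *Elane* counts, has no such ratio. The ratios of KO replicates 1 and 2 rested on 1 and 4 *Elane* counts, so no difference between the groups is read from these ratios. *Elane* did not pass the filter on low counts, and its log2 fold change without that filter was 2.55 ± 1.65 (SE).

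None of the tested genes drawn around this pair had KO libraries that all lay above all WT libraries, beside 6.25% of all genes tested. At that share, finding none among so few genes says little about the region. *Lppr3*, which runs in the opposite direction and shares 159 bases with the annotated 5′ end of *Prtn3*, had a log2 fold change of -0.01 ± 0.23 (SE). *Ptbp1*, an RNA-binding splicing regulator, was at 0.00 ± 0.25, *Med16*, a further Mediator subunit gene, at 0.15 ± 0.25, and *R3hdm4* at -0.01 ± 0.22. *Kiss1r*, the kisspeptin receptor gene 42.5 kb from *Prtn3*, had 1, 22 and 1 counts in WT and 62, 8 and 28 in KO, which overlapped at a log2 fold change of 2.50 ± 1.28. *Cfd*, the gene of the serine protease complement factor D 2637 bases beyond *Elane*, had at most 1 count in any library. *Prss57*, described below, lies 83.5 kb from *Prtn3* in the same region. Since the strand setting of the counting is not given, reads in the stretch shared with *Lppr3* cannot be assigned to either gene.

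**Figure D2:**
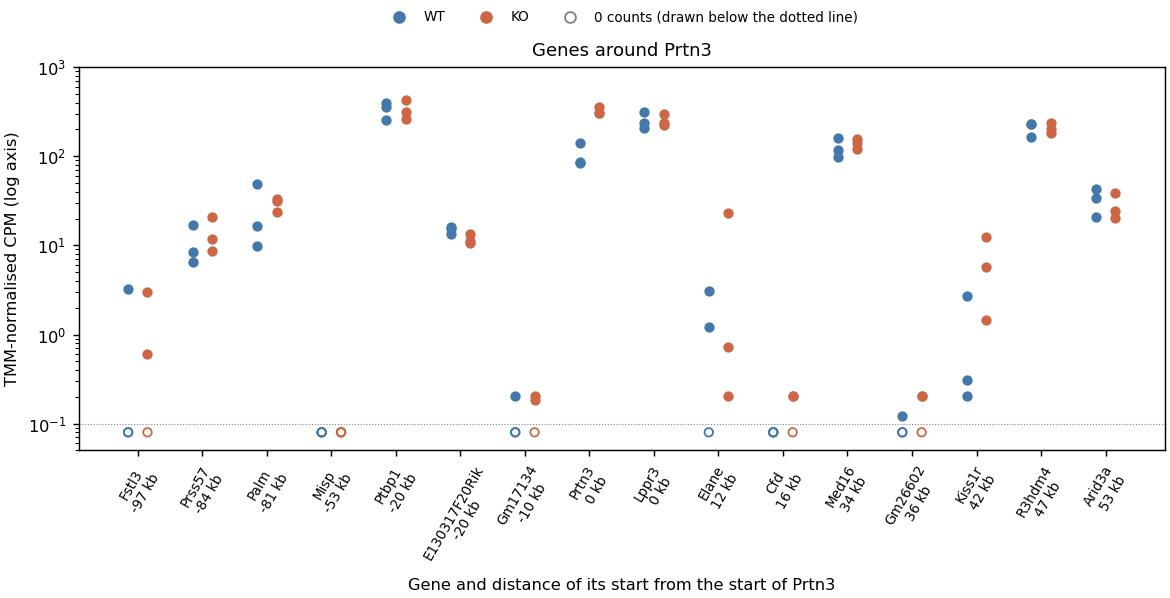
TMM-normalised CPM (log axis) of the annotated genes around *Prtn3*, ordered by position, with the distance of each start from that of *Prtn3* in kb (GENCODE gene spans, for which start means the 5′ end). Points are single libraries, WT in blue and KO in orange, and open circles under the dotted line are libraries with 0 counts. *Prtn3* separates the groups, *Lppr3*, *Ptbp1*, *Med16*, *R3hdm4* and the low *Kiss1r* overlap, and *Elane* has 1 high KO library.

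The sequences upstream of both genes are printed because they share short motifs although their levels differed. They run 5′ to 3′ on the strand of the gene, from 250 bases before the RefSeq start up to the first base of a GENCODE transcript, in GRCm38.p6, and capitals mark AGGAAGT, the core that ETS factors such as PU.1 bind. *Prtn3* is chr10:79879417-79879613 (plus strand), which lies inside the longer gene span that GENCODE gives, *Elane* is chr10:79886062-79886246 (plus strand), and *Ctsg* is chr14:56102575-56102824 (minus strand).
Prtn3: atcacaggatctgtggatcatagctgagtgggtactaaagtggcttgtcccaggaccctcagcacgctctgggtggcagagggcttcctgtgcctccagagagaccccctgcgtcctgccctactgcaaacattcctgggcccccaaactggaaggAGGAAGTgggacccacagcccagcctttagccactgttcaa
Elane: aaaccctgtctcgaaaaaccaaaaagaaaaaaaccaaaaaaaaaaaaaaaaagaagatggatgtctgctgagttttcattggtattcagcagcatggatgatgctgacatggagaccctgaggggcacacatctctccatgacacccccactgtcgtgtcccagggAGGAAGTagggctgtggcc
Ctsg: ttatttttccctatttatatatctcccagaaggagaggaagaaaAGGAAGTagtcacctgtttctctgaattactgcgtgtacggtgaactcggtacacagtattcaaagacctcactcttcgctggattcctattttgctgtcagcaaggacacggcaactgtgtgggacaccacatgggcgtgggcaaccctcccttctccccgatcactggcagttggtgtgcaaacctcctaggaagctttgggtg

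AGGAAGT began 94 bases before the RefSeq start of *Prtn3*, 84 bases before that of *Elane* and 206 bases before that of *Ctsg*. On either strand it was in the 250-base windows of 6 of the 8 genes with a RefSeq window, the others being *Mpo*, *Ctsc* and *Cst7*, and in 7.69% of all 32841 windows. AACGG, the core bound by MYB, was in the windows of *Prtn3* and *Elane* alone, 55 and 50 bases before the start, and in 14.5% of all windows. TATAA, searched on the sense strand, was 32 and 31 bases before those starts, in a *Srgn* window and in 16.0% of all windows. For *Prtn3* and *Elane*, the AACGG and TATAA matches run or lie past the end of the printed stretches, where only AGGAAGT can be read. TTNNGNAA (C/EBP, 36.9% of windows) was found for *Cst7*, *Ms4a3* and *Srgn*, and TGTGGT (RUNX, 14.0%) for *Cst7*, *Ctsg* and *Srgn*. These are matches of letters, chosen after the sequences had been read, and *Prtn3* and *Elane* shared 3 of them within about 10 bases of the same position while only *Prtn3* separated the groups.

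*Mpo* encodes myeloperoxidase, which makes hypochlorous acid from hydrogen peroxide. It had 23, 0 and 0 counts in WT and 14, 7 and 867 counts in KO. KO replicate 3 was at 175 CPM, and no other library exceeded 4.72 CPM. The log2 fold change of 5.24 ± 2.38 (SE) therefore rested on 1 library, and it was 0.38 without KO replicate 3. *Gm11505*, an antisense gene that shares 5361 bases with *Mpo* (chr11:87793581-87804413), was listed with 17 counts in KO replicate 3 and with 0 in the others.

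*Ctsg*, the gene of the serine protease cathepsin G (chr14:56099881-56102574), repeated the pattern of *Mpo* and *Elane* at a lower level. It had 3, 3 and 7 counts in WT and 0, 3 and 83 in KO, and only KO replicate 3, at 16.8 CPM, was above the WT range of 0.369 to 2.16 CPM. It did not pass the filter, and its log2 fold change without it was 2.51 ± 1.70 (SE). *Ms4a3*, a membrane protein gene expressed in granulocyte-monocyte progenitors, was near the floor in both groups, with 3, 0 and 15 counts in WT and 0, 0 and 18 in KO. A count of 0 in these libraries allows a level of up to 0.369 to 0.927 CPM (3 counts of the library), and lower levels were not detectable at this depth. The log2 fold change of *Ms4a3*, also without the filter, was -0.46 ± 2.08 (SE).

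KO replicate 3 held 95.2% of the CPM of *Mpo* summed over the 6 libraries, 82.0% of that of *Ctsg* and 81.6% of that of *Elane*. Among the 10566 genes with at least 80 counts in any library, these were the 3 genes of which KO replicate 3 held at least 75%. The other libraries held 75% of 3, 6 and 5 genes (WT replicates 1 to 3) and of 3 and 1 genes (KO replicates 1 and 2), none of them a primary granule gene of the 9. The thresholds were chosen after the values had been seen. For *Prtn3* the share of KO replicate 3 was 27.8%, and those of KO replicates 1 and 2 were 23.8% and 24.0%. Summed over *Mpo*, *Elane*, *Ctsg* and *Ms4a3*, the counts were 35, 3 and 32 in WT and 15, 14 and 1083 in KO.

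**Figure D3:**
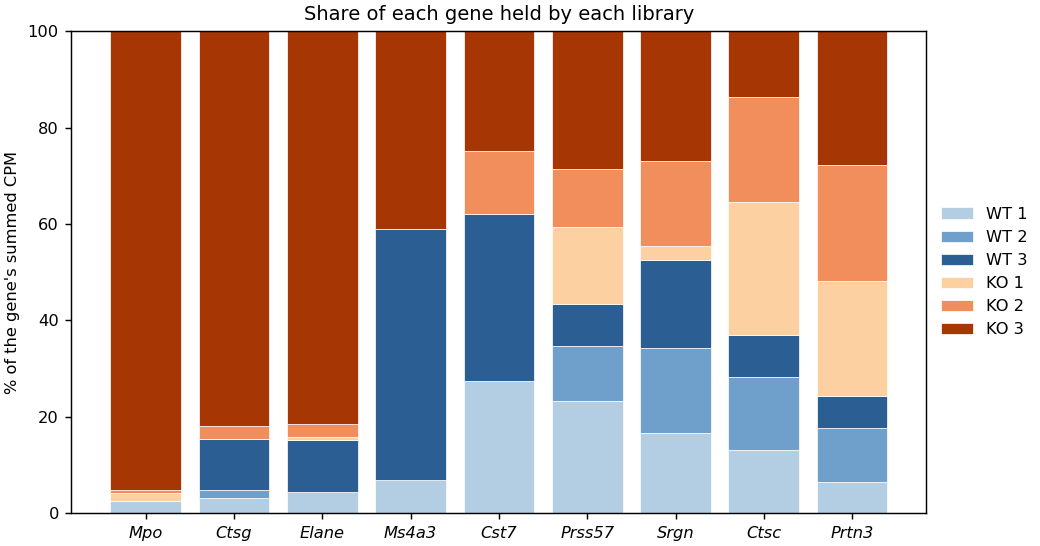
Share of each gene's CPM, summed over the 6 libraries, that each library held (vertical axis, percent). Blue shades are WT and orange to brown shades are KO libraries. KO replicate 3 held 95.2% of *Mpo* but 27.8% of *Prtn3*, which the 3 KO libraries shared almost evenly.

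The neutrophil markers were given beside this because KO replicate 3 also held more of them. Of 10 neutrophil markers, 6 had more than 3 counts in KO replicate 3, against 0 to 3 in the other libraries. *Ltf*, *Mmp8* and *Ly6g*, which define later neutrophil stages, had at most 3 counts in every library. The summed level was 13.2 CPM in KO replicate 3, 0.728 and 4.25 CPM in the other KO libraries and 2.58 to 10.8 CPM in WT. *Chil3* had 20 counts in KO replicate 3 and at most 1 in the others, and *Camp*, an antimicrobial peptide gene, had 11 and at most 1. *S100a8* and *Cxcr2* were also highest in KO replicate 3, and *Lcn2* had 8 counts in KO replicates 1 and 3. *Ngp*, *S100a9* and *Retnlg* were higher in the library labelled WT replicate 3, at 3.71, 4.02 and 1.55 CPM. In KO replicate 3 they were at 1.82, 3.44 and 0 CPM. The 14 listed secondary and tertiary granule genes, *Chil3* and *Camp* among them, summed to 41.7 CPM in KO replicate 3. In the library labelled WT replicate 3 they summed to 42.3 CPM. *Clec12a*, a receptor of myeloid progenitors, had 55 counts in KO replicate 3, 25 in the library labelled WT replicate 3 and 0 in the other 4. These genes were named after their values had been seen, and the part of other cells in KO replicate 3 was not tested.

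*Ctsc* encodes cathepsin C (dipeptidyl peptidase 1), which removes the activation dipeptide from the granule serine proteases. It was at 99.0, 116 and 65.8 CPM in WT and at 208, 165 and 104 CPM in KO. KO replicates 1 and 2 were above all WT libraries, but KO replicate 3 lay below WT replicate 2. The means were 93.5 ± 25.3 CPM and 159 ± 52.3 CPM (SD, n = 3), with a log2 fold change of 0.77 ± 0.31 (SE), and 0.999 without KO replicate 3. The KO library with the most *Mpo*, *Elane* and *Ctsg* was thus the one with the least *Ctsc*.

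*Cst7* encodes cystatin F, an inhibitor of cathepsin C and related proteases. Its counts of 13, 0 and 11 in WT and 0, 7 and 12 in KO overlapped, with a log2 fold change of -0.66 ± 1.66 (SE). *Prss57*, the gene of neutrophil serine protease 4 (chr10:79781474-79790961, minus strand), had 83, 68 and 21 counts in WT and 58, 48 and 104 in KO. Its levels of 6.49 to 17.0 CPM in WT and 8.74 to 21.05 CPM in KO overlapped, and the log2 fold change was 0.38 ± 0.63 (SE), or -0.05 without KO replicate 3. It shares 1157 bases with *Fstl3* on the opposite strand, which had at most 16 counts.

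*Srgn* encodes serglycin, the proteoglycan core that retains proteases in the granule. Its levels in WT were close, at 584, 614 and 646 CPM, with a log2 SD of 0.0729, which was at percentile 2.05 of all genes tested. In KO they were 102, 616 and 945 CPM, with a log2 SD of 1.70 at percentile 96.3. Both percentiles were again not matched for level. KO replicate 1 lay below and KO replicate 3 above all WT libraries, so the log2 fold change of -0.15 ± 0.56 (SE) averaged opposite deviations, and it was 0.35 without KO replicate 1 and -0.77 without KO replicate 3. In KO replicate 1, *Srgn* was 1 of 3 genes that lay at least 4-fold under every other library while those were all at 100 CPM or more, out of 1566 such genes. The other 2 were *Gm28439* and *Gm5148*, which are named after their values had been seen. KO replicate 1 held 504 *Srgn* counts, and the cause of this low value was not tested.

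Per transcript length, on the FPKM scale, *Srgn* had the highest level of the 9 genes in WT, at 155 ± 3.07 FPKM (SD, n = 3), followed by *Prtn3* at 34.4 ± 11.6 FPKM and *Ctsc* at 13.7 ± 4.27 FPKM. These 3 did not overlap with their neighbours in the order. Below them came *Cst7*, *Prss57*, *Elane*, *Ctsg*, *Ms4a3* and *Mpo*, with means from 1.98 down to 0.335 FPKM, each overlapping with the next. In KO, *Prtn3* was at 110 ± 4.82 FPKM and overlapped with *Srgn*, which ranged from 27.2 to 234 FPKM. *Ctsc* followed at 24.1 ± 8.65 FPKM without overlap with *Prtn3*, and *Mpo*, *Elane*, *Ctsg*, *Prss57*, *Cst7* and *Ms4a3* overlapped in turn. Among the 9 genes, *Prtn3* was thus the protease with the highest level in every library, at 26.7 to 47.8 FPKM in WT and 107 to 116 FPKM in KO. *Elane* reached 24.4 FPKM in KO replicate 3. Outside the 9, the cathepsin genes *Ctsb* and *Ctsd* had higher WT means than *Prtn3*, at 81.2 and 77.1 FPKM. Of all counts of the 9 genes, *Prtn3* made up 10.5%, 16.1% and 10.6% in WT and 48.4%, 27.9% and 21.6% in KO, where the share of KO replicate 1 was set in part by its low *Srgn*.

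Of the 9 genes, 6 passed the filter on low counts (*Prtn3*, *Mpo*, *Ctsc*, *Srgn*, *Cst7* and *Prss57*), in part through the libraries where they were high. The edgeR quasi-likelihood test with adjustment over all genes called 0 of the 6, beside 0.0719% of all genes tested in either direction and 0.016% higher in KO. At an unadjusted p under 0.05, *Prtn3* and *Ctsc* were higher in KO and no other gene of the 9 was past it, beside 2.94% of all genes higher and 5.71% in either direction. DESeq2 called *Prtn3*, beside 0.959% of all genes in either direction and 0.4% higher in KO. Since the genes were chosen on this contrast, nothing is read from these counts.

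Lists of related genes were compared in the same fit. Of 113 listed genes, 69 were tested, and edgeR called 0 of them. At an unadjusted p under 0.05 there were 3 higher and 2 lower, beside 368 and 347 of all 12513 genes tested. DESeq2 called 1 gene, *Irf8*, beside 0.959% of all genes. The median log2 fold change of the 69 genes was 0.12, beside -0.01 over all genes tested. KO lay above WT without overlap for 11 of them (beside 6.25% of all genes) and below for 1 (beside 769 of all 12513 genes).

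Among transcription factors known to act on primary granule genes, 10 of 11 passed the filter and their median log2 fold change was 0.35. *Irf8*, which directs progenitors toward the monocyte and dendritic lineages, was at 3.49, 23.6 and 5.25 CPM in WT and at 89.1, 34.0 and 54.0 CPM in KO. The groups did not overlap, and the log2 fold change of 2.41 ± 0.69 (SE) did not pass in edgeR (adjusted p = 0.470) but did in DESeq2 (adjusted p = 0.0217). It was 3.76 without WT replicate 2, the highest WT library, and 2.00 to 2.70 with any other library left out. *Cebpa*, a factor required for granulocyte commitment, had 0, 1 and 0 counts in WT and 22, 19 and 7 in KO, too few to be tested by edgeR after the filter. It is named after its values had been seen, and every KO library lay above every WT library. *Spi1*, the PU.1 gene, was at a log2 fold change of 0.31 ± 0.23, *Myb* at 0.15 ± 0.19, *Gfi1* at -0.14 ± 0.44, *Cebpb* at -0.02 ± 0.54 and *Cebpd* at 0.55 ± 0.56, none of which passed in either tool.

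Among granulocyte-monocyte progenitor genes, 12 of 18 passed the filter, at a median of 0.07 on the log2 scale, and neither tool called any. KO lay above WT without overlap for 3 of the 12 (beside 6.25% of all genes tested) and below for 0. These were the signalling adaptor genes *Fcer1g* and *Tyrobp*, which were the highest, and *Cd34*, named after its values had been seen. *Cd34* was at 296 to 360 CPM in WT and 384 to 520 CPM in KO, with a log2 fold change of 0.40 ± 0.20 (SE). *Fcer1g* was at 22.1, 31.3 and 34.0 CPM in WT and at 49.0, 71.7 and 107 CPM in KO. On the log2 scale the difference was 1.38 ± 0.37 (SE), with an adjusted p of 0.415 in edgeR and 0.0527 in DESeq2. *Tyrobp*, whose protein also signals from immune receptors, was lower in level, at 1.84 to 7.11 CPM in WT and 8.71 to 10.9 CPM in KO, and its log2 fold change was 1.34 ± 0.81, or 2.10 without the library labelled WT replicate 3. The granule membrane gene *Nkg7* was among the lowest at -0.88 ± 0.44, and its libraries overlapped between the groups.

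The further content of primary granules and lysosomes was close to even between the groups. Of 11 such genes 9 passed the filter, at a median of 0.05 on the log2 scale, and *Man2b1*, a lysosomal mannosidase, was the highest at 0.37 ± 0.23 (SE). *Ctsd*, the protease cathepsin D, was at 0.28 ± 0.18 and *Cd63*, a granule membrane tetraspanin, at -0.08 ± 0.21. *Bpi*, which encodes a bactericidal granule protein, had 0 counts in all 6 libraries, and *Lyz2* (lysozyme) was at -0.08 ± 0.19. None of these passed in either tool.

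Genes that build the glycosaminoglycan chains of serglycin (13 of 15 tested) had a median log2 fold change of 0.24. *B3gat3*, which completes the linker between core protein and chain, was highest at 1.34 ± 0.67 and at 0.66 without KO replicate 3, with *Chst15*, a chondroitin sulfotransferase, at 0.63 ± 0.33. *Chpf2* and *Chpf*, both of chondroitin polymerisation, were at -0.88 ± 0.35 and -0.60 ± 0.94. Genes of granule sorting and secretion (16 of 16 tested) had a median of 0.02, from *Stx11*, a syntaxin, at -0.87 ± 1.01 and *Igf2r*, a mannose 6-phosphate receptor, at -0.65 ± 0.68 to *Hps1* at 0.43 ± 0.26 and *Lyst* at 0.58 ± 0.36, the last 2 acting in the making of lysosome-related organelles. No gene of either list was called by edgeR or DESeq2.

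Of the inhibitors of granule proteases 6 of 14 passed the filter, at a median of 0.16 on the log2 scale. *Serpinb1a*, whose product inhibits elastase, cathepsin G and proteinase 3, was at 79.6, 80.9 and 35.5 CPM in WT and at 103, 63.9 and 92.9 CPM in KO, with overlap and a log2 fold change of 0.40 ± 0.36 (SE). *Serpinb9* was at 0.47 ± 0.34, *Cstb* (cystatin B) at 0.10 ± 0.47 and *Serpina3g*, at 1042 to 1719 CPM in WT, at 0.01 ± 0.22. Of the secondary and tertiary granule genes, which follow primary granule genes in neutrophil development, 2 of 14 were tested and 4 had 0 counts throughout, and *Pglyrp1* was at -0.53 ± 0.57. Of the other granule proteases, 1 of 14 was tested, the mast cell carboxypeptidase *Cpa3* at 0.11 ± 1.22, and 11 had 0 counts in all libraries. None of these genes was called by either tool.

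**Figure D4:**
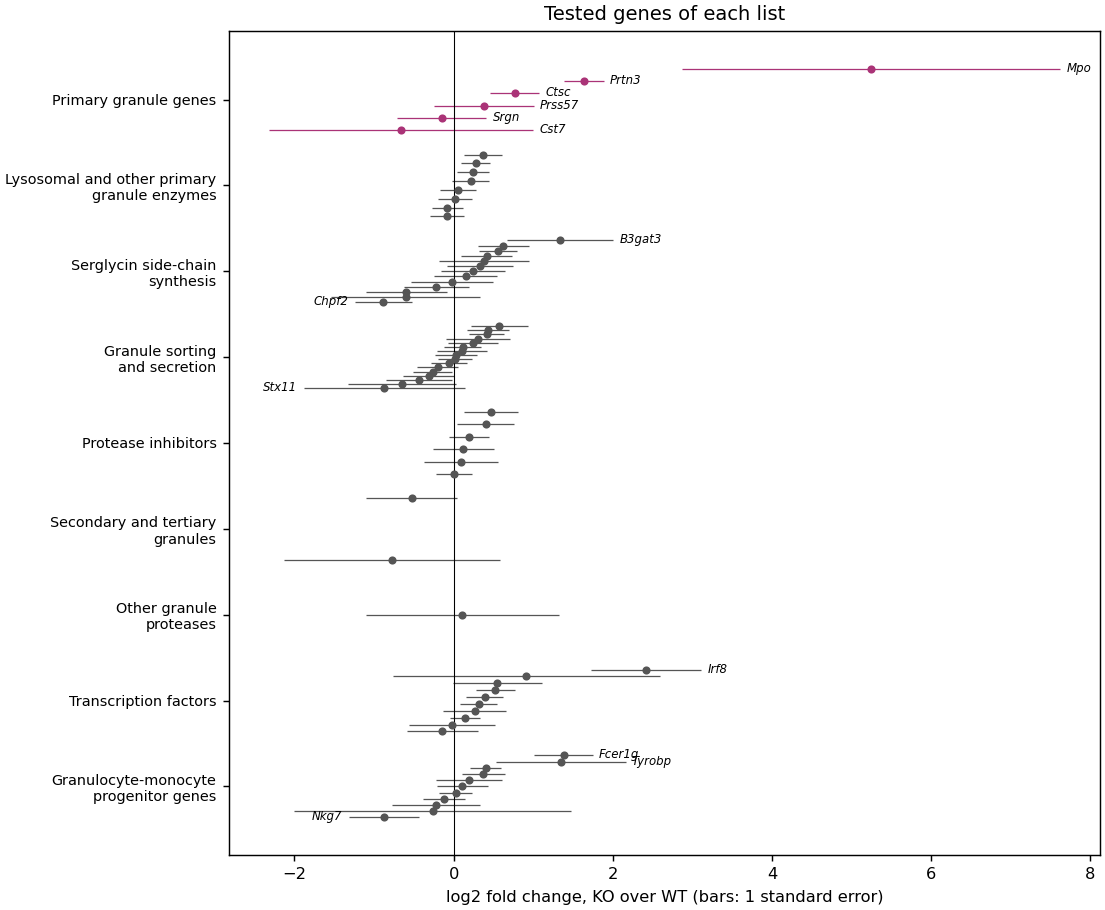
Log2 fold change, KO over WT, of the tested primary granule genes (purple) and of the tested genes of 8 related lists (grey), from edgeR, with bars of 1 standard error. Of the genes drawn, those beyond about 1.2 above or 0.85 below 0 are named, and 2 listed genes are not drawn. Most listed genes lie within 1 unit of 0, and *Irf8*, *Fcer1g*, *Tyrobp* and *B3gat3* are the highest outside the primary granule genes.

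The genes whose pattern over the 6 libraries was most like that of *Prtn3* were sought among 10132 tested genes with a mean of at least 50 counts. The measure was the root mean square difference of log2(CPM + 0.5), each gene centred on its own mean over the 6 libraries. *Fyb*, an adaptor protein gene of hematopoietic cells, was closest at 0.102, and it was at 36.5, 54.9 and 38.9 CPM in WT and at 132, 138 and 176 CPM in KO. *Diap2*, a formin gene, followed at 0.193, *Tdg*, a DNA glycosylase gene, at 0.204, *St8sia4*, a polysialyltransferase gene, at 0.208 and *Ncf4*, a subunit gene of the phagocyte NADPH oxidase, at 0.232. When log2(FPKM + 1) was used, 1 of the 5, *Fyb*, was again among the 5 closest. Of the granule genes with enough counts, *Ctsc* ranked 371 of 10136, *Prss57* 3515, *Srgn* 9694 and *Mpo* 10103, so that none of them was among the genes that followed *Prtn3* closely over these libraries.

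**Figure D5:**
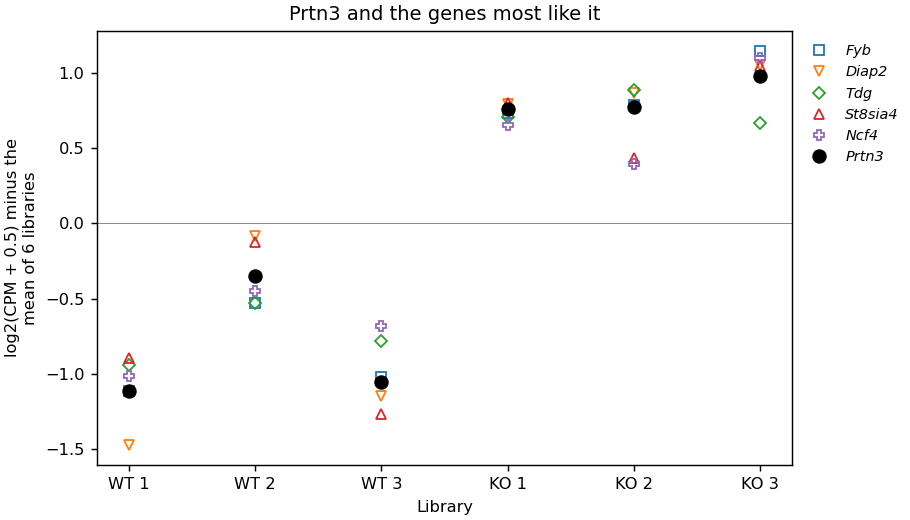
Log2(CPM + 0.5) of *Prtn3* (black) and of the 5 genes most like it, each minus its mean over the 6 libraries, by library. All 6 genes lie below 0 in the 3 WT and above 0 in the 3 KO libraries, and WT replicate 2 is the highest WT library for each, which is what the measure of likeness selects.

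The nearest neighbours of the remaining genes were read in the same way. *Gm11505*, antisense to *Mpo*, was, like *Mpo*, highest in KO replicate 3 and is described with it above. *Ctsg* lies among protease genes that were hardly detected, *Mcpt8* with 0 counts and *Gzme* with at most 1. *Ms4a2* and *Oosp2* beside *Ms4a3* and *Grm5* and *Gm26522* beside *Ctsc* had at most 3 counts. *Vps26a* (0.15 ± 0.26 on the log2 scale) and *Kif1bp* (0.16 ± 0.46) flank *Srgn*, *Gm14121* (0.31 ± 0.68) and *Apmap* (-0.06 ± 0.35) flank *Cst7*, *Palm* (0.23 ± 0.57) lies beside *Prss57* and *Bzrap1* (0.20 ± 1.47) beside *Mpo*. None of these was called by edgeR. In KO replicate 1, where *Srgn* was at 102 CPM, *Vps26a* was at 177 CPM, its highest value of the 6 libraries.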

How the data were processed

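HSC RNA was measured in 3 WT and 3 KO libraries. The authors deposited whole-number counts per gene, not normalised, and FPKM values. The FPKM values equal the counts per gene length and column total, with counts per FPKM differing between libraries by at most 0.0703% from that relation. TopHat, HTSeq and mm10 are named in the submitters' processing notes. Versions, annotation and strand setting are not given in the sources used here.

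Tests on the counts used edgeR 4.0.16 under R 4.3.3 (filterByExpr, TMM, robust quasi-likelihood test, Benjamini-Hochberg adjustment over 12513 genes at 0.05). CPM use the TMM-scaled totals. SEs are those of the edgeR log2 fold change. Alternatives were DESeq2 1.42.0, upper-quartile scaling, no filter, at least 10 counts in every library, limma 3.58.1 on log2(FPKM + 1) or log2(FPKM + 0.1), the replicate number as a block, and each library left out. The fits were checked on simulated counts. Poisson intervals and floors (3 counts) cover counting error only, since PCR copies are not independent molecules.

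The genes and lists were chosen with earlier results of these data known. Named were all 9 genes, list genes past the threshold or with the 2 largest or 2 smallest log2 fold changes at a mean of 20 or more counts, the 5 genes most like *Prtn3*, the nearest neighbours and *Med23*, except 2 list genes that are not reported here. Others are marked as chosen after their values were seen, or are *Spi1*, *Myb*, *Lyz2* and *Bpi*, and the genes around *Prtn3*, which were likewise chosen afterwards. Gene spans are from GENCODE M21 (34267 of 34745 identifiers matched), upstream sequences from RefSeq on GRCm38.p6 (8 of 9 genes matched by symbol).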

Additional observations from a re-analysis of the deposited data

How the results depend on the processing

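The limits are the 3 libraries per group, amplified cDNA, an unknown strand setting and, for *Mpo*, *Elane*, *Ctsg*, *Ms4a3* and *Cst7*, counts near the floor. Over all genes, 9 were called by edgeR. DESeq2 called 120 (50 higher, 70 lower in KO), the fit with the replicate block 5 and limma on log2(FPKM + 1) with a mean FPKM of at least 1 called 15, and with 1 library left out the count was 5 to 11, with 5 without WT replicate 1. Of the 9 primary granule genes 0 were called, but 1, *Prtn3*, was called by DESeq2, by the same limma fit, by edgeR with no filter or with a minimum of 10 counts per library, and when WT replicate 2 was left out (0 to 1 over the libraries left out). Of the related genes 0 were called, and 1 (*Irf8*) by DESeq2. The log2 fold change of *Prtn3* was 1.50 to 1.93 over all alternatives. Of 99 values of the primary granule genes under alternatives, 94 lay within 1 replicate SD of the reported value. The 5 others were those of *Mpo* at 1.74 (limma on log2(FPKM + 1), with and without the filter), 11.32 without WT replicate 1, which leaves WT at 0 counts, and 0.38 without KO replicate 3, and of *Ctsg* at 0.20 (limma on log2(FPKM + 0.1)). This measure is wide where libraries differ, with a replicate SD of 2.89 for *Mpo* and 1.73 for *Ms4a3*, and it allows a change of direction. Within it, *Ms4a3* turned to 0.11 without KO replicate 1 or KO replicate 2. *Srgn* turned to 0.35 without KO replicate 1, and *Prss57* to -0.05 without KO replicate 3. Of the 5 genes most like *Prtn3*, 1 was shared on the log2(FPKM + 1) scale.

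Of 359 values of the named list genes under alternatives, 339 kept their direction, and the 20 others were of 7 genes with reported values near 0 or SEs larger than the value. *Cebpb* was at 0.0047 without the filter, 0.26 with the replicate block, 0.26 by limma on log2(FPKM + 1) with or without the filter and 0.28 on log2(FPKM + 0.1). The others turned only when a library was left out. Over the libraries left out, *Cebpb* ranged from -0.33 to 0.88, *Cd63* from -0.18 to 0.037, *Cpa3* from -0.41 to 2.64, *Cstb* from -0.17 to 0.30, *Gfi1* from -0.36 to 0.32, *Pglyrp1* from -0.94 to 0.046 and *Serpina3g* from -0.19 to 0.13. With 1 library left out, *Cebpd* reached 1.25 (WT replicate 2), *Chpf* -1.84 (KO replicate 2), and *Igf2r* -1.73 and *Stx11* -2.12 (KO replicate 1). The cause of these changes was not tested.

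The labels number both groups from 1 to 3 without saying what equal numbers share. For that reason the numbers were not taken as pairs, and the replicate block was fitted as an alternative. The deviations of same-numbered libraries correlated across genes with r of 0.170, 0.0324 and 0.170, and those of libraries with different numbers with r from -0.173 to 0.0350. These values do not decide whether equal numbers share something. WT replicates 1 and 3 correlated best with the KO library of their own number, and WT replicate 2 with KO replicate 1 (0.0350). With the replicate block, *Prtn3* was at 1.67 and *Irf8* at 2.81 on the log2 scale, and no primary granule gene or related gene was called.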
